A study of Saccharomyces cerevisiae with 24 samples.

Results

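The mitochondrial ribosome of budding yeast is built almost wholly from proteins encoded in the nucleus, and 59 of these genes are described here. They were taken from the 6369 rows of the gene count table by their systematic names, as nuclear genes with MRPL, MRP, MRPS and RSM symbols, a rule that uses no measured value. Of them, 36 encode proteins of the large (54S) subunit and 23 encode proteins of the small (37S) subunit. The RefSeq product names gave the same subunit for 36 of the 36 large-subunit genes and for 22 of the 23 small-subunit genes. The exception was RSM22, which is annotated there as a tRNA methyltransferase.

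The mitochondrial ribosome translates the few messenger RNAs of the mitochondrial genome, most of which encode core subunits of the respiratory chain and of ATP synthase. Its own proteins are made on cytosolic ribosomes and imported. In yeast, many of the messenger RNAs that encode them are bound in the 3′ untranslated region by Puf3, an RNA-binding protein that promotes their decay on glucose and is linked to their localisation near mitochondria. On a sucrose gradient, a messenger RNA sediments further the more cytosolic ribosomes it carries.

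The study compared Saccharomyces cerevisiae strains named ∆RPL22A, ∆RPL22B and WT, where the deletions remove either copy of the gene for Rpl22, a protein of the large subunit of the cytosolic ribosome. The labels name no other allele. All cultures were in log phase at an optical density of 0.6 to 0.8 and received cycloheximide, which halts ribosomes on messenger RNA. For each strain, polyA RNA was sequenced from 4 pools, the input, the monosomes, the light polysomes (PolysomeLow) and the heavy polysomes (PolysomeHigh), in biological duplicate, which makes 24 libraries in 12 groups.

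Total counts ran from 2435632 to 10947937 per library, of which 62.5% to 97.1% fell on 7 rows of the ribosomal DNA locus. That left 314212 to 1950344 counts for other genes and 884 to 5184 counts for the 59 genes together, with a median count per gene and library between 10 and 68. Each library correlated best with a library of its own pool over all genes tested (r between 0.931 and 0.980 on log2 values). This includes the 4 libraries, left out in an alternative fit below, that earlier work on these data had placed closest to another pool. That placing was not found again by this measure. RPL22B had 6354 counts over the ∆RPL22A libraries, 0 over the ∆RPL22B libraries and 1329 over the WT libraries, while RPL22A had only 3, 40 and 25 counts in the same order of strains. A list of 6 genes of mating type a summed to 1.25–2.88 CPM (counts scaled to a common library size) in ∆RPL22A, 0.855–3.72 in ∆RPL22B and 59.1–229 in WT, and a list of 4 alpha genes to 377–936, 257–1164 and 0–4.24. Mating type therefore differs together with each deletion, and the 2 cannot be told apart in comparisons with WT. CPM values were scaled between libraries, so they are shares of the RNA in a pool and not amounts, and in bulk cultures fewer cells with an RNA and less of it per cell cannot be told apart.

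The letters recognised by Puf3, TGTANATA in DNA, lay within 300 bases after the stop codon of 58 of the 59 genes (98.3%), on the strand that reads as the messenger RNA. Over all genes with a matched coding sequence, 965 of 5907 (16.3%) had them in that window. They were found after all 36 large-subunit genes and after 22 of the 23 small-subunit genes, and RSM22 was the gene without them. Read on the opposite strand, the same letters occurred at 13 of the 59 genes and at 934 of all genes (15.8%). The nearest match began 8 to 139 bases after the stop codon, with a median of 51, and in 54 genes it began within 100 bases. Of 72 matches in all, 32 read TGTAAATA, 21 TGTATATA, 18 TGTACATA and 1 TGTAGATA, and 13 genes held more than 1 match. The sites below belong to genes whose values are followed further on, MRPL44, MRPL50 and MRPL39 as short large-subunit genes that were scarce in heavy polysomes, MRPL37 and RSM7 as genes that were abundant there, and MRP51 as a small-subunit gene whose pool differences were not called and MRP1 as one described for what it encodes. Each is read from the R64 genome, 5′ to 3′ on the strand that reads as the messenger RNA, with the matched letters in capitals. For MRP1 the match nearest the stop codon is shown, and another begins 83 bases after the stop codon.
MRPL44, chrXIII:720856-720881, minus strand: aagcaagccTGTAAATAatatatatg
MRPL50, chrXIV:669721-669746, minus strand: gtacaatctTGTATATAggcaacatc
MRPL39, chrXIII:251209-251234, minus strand: catttatccTGTAAATAagtaatgga
MRPL37, chrII:741640-741665, plus strand: tggtatcctTGTAAATAaatatgtgt
RSM7, chrX:638194-638219, minus strand: aaacttgccTGTACATAaacacattt
MRP51, chrXVI:327699-327724, plus strand: tcagagttcTGTAAATAaataaagaa
MRP1, chrIV:1170185-1170210, plus strand: ggtagtctcTGTAAATAtataaagtc
These matches are a description of the letters and not evidence of binding in these cells.

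The same letters separated groups of genes around mitochondrial translation. All 9 other large-subunit genes and all 9 other small-subunit genes of the mitochondrial ribosome had them, as did all 14 genes for mitochondrial aminoacyl-tRNA synthetases, which charge the tRNAs. They were present in 7 of 9 genes for mitochondrial translation factors, 12 of 16 for translational activators and 6 of 8 for assembly of the mitochondrial ribosome. Only 9 of 38 nuclear genes for the respiratory chain and ATP synthase (23.7%) and 12 of 137 genes for cytosolic ribosomal proteins (8.76%) had them. The plot of motif shares shows these groups beside the share over all genes.

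**Figure D1:**
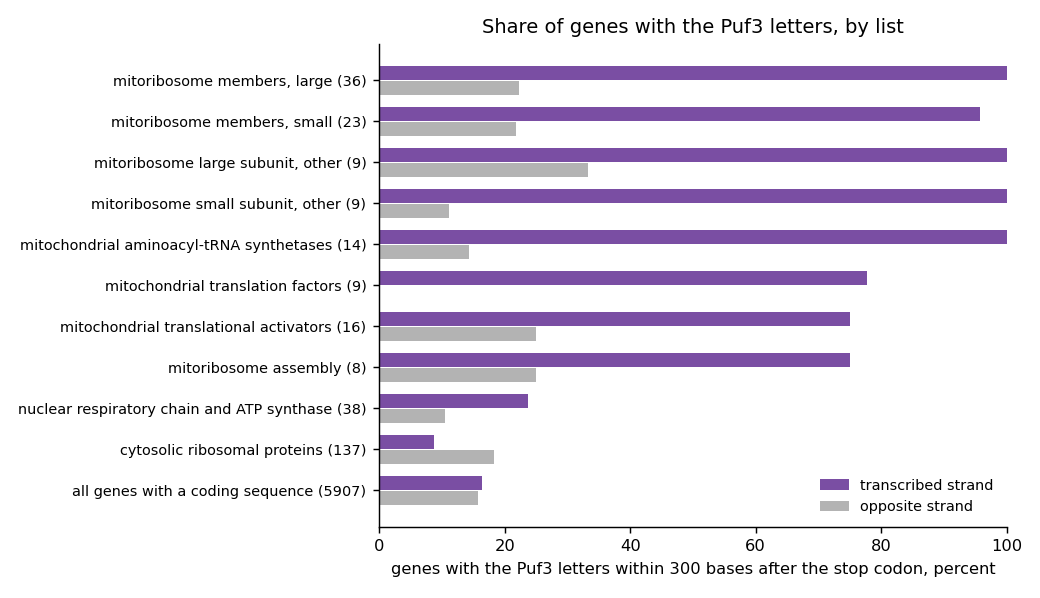
Share of genes in each list, in percent, with the letters TGTANATA within 300 bases after the stop codon, with the number of genes in brackets. Coloured bars are for the strand that reads as the messenger RNA and grey bars for the opposite strand. On the messenger RNA strand all large-subunit genes and 95.7% of the small-subunit genes have them, against 16.3% of all genes and 8.76% of cytosolic ribosomal protein genes.

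In the input, the mitochondrial ribosomal protein genes were expressed at a moderate level. Per kilobase of coding sequence their median was 5.93 CPM, against 2.65 CPM over all genes, 12.4 CPM for the nuclear respiratory chain genes and 414 CPM for the cytosolic ribosomal protein genes. The median was 5.82 CPM per kilobase for the large-subunit genes and 6.40 for the small-subunit genes. The other genes of the mitochondrial ribosome had higher medians on the same scale, 8.47 CPM for 9 large-subunit and 10.2 CPM for 9 small-subunit genes. The rest of the mitochondrial translation machinery lay lower, with medians of 0.98 CPM for the synthetases, 0.76 for the translation factors, 1.43 for the activators and 2.04 for the assembly genes.

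The levels of single genes spread over more than the spread between libraries. MRPL39 (YML009C), for the bL33m protein (chrXIII:251304-251516), stood highest at 17.6 ± 3.19 CPM per kilobase (SD over 6 input libraries), followed by MRPL44 (YMR225C), for mL53 (chrXIII:720960-721403), at 16.0 ± 3.02. MRPL33 (YMR286W), for uL30m, had 13.6 ± 7.02 and MRPL37 (YBR268W), for mL54 (chrII:741299-741616), had 12.8 ± 4.34. Each of these 4 genes differed from the next in the order by less than its SD, whereas MRPL39 and MRPL37 differed by more than the SD of either. All 4 encode small proteins of the large subunit. Their coding sequences have only 213, 297, 261 and 318 bases, so division by coding length raises their values more than those of longer genes. Before that division MRPL39 had 2.89 to 4.54 CPM in the input libraries, below the 5.34 to 9.61 CPM of MRPL8. The ranges of MRPL44, MRPL33 and MRPL37 overlapped that of MRPL8. The order given here therefore holds for CPM per kilobase and not for CPM.

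At the low end were MRPL24 (YMR193W), for bL28m, with 2.21 ± 0.88 CPM per kilobase, MRPL51 (YPR100W), for mL43, with 1.65 ± 0.45, and RSM22 (YKL155C) with 1.31 ± 0.40. MRPL38 (YKL170W), for uL14m, was lowest at 0.294 ± 0.27. With 19 counts over all 24 libraries it was the only one of the 59 genes to fail the filter on low counts, and it is in none of the tests below. The reading frames of MRPL19, MRPL51 and MRP4 overlap those of other genes, and whether the counting used strand is not given, so their counts may include reads of the partner. Among the genes fixed for what they encode, MRP1 (YDR347W) and RSM26 (YJR101W), a pair related in sequence to manganese superoxide dismutase, had 6.88 ± 0.79 and 6.33 ± 0.44 CPM per kilobase. MRP51 (YPL118W), a small-subunit protein needed for translation of mitochondrial messages, had 4.73 ± 0.66, and MRP7 (YNL005C), for bL27m, had 3.24 ± 0.48.

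The first question of the design was whether loss of either RPL22 copy changed these genes. In the input it did so for none of the 58 genes tested by edgeR's quasi-likelihood test at an adjusted p under 0.05, in ∆RPL22A against WT (4.65% of 5380 genes called), ∆RPL22B against WT (0.335% called) or ∆RPL22A against ∆RPL22B (5.26% called). DESeq2 also called 0 in each. Without adjustment, 2, 0 and 5 of the 58 had a p under 0.05 in the 3 comparisons. Unadjusted counts are given here and below without the share over all genes. They therefore do not show whether the 58 genes stand out. The median log2 difference of the 58 genes was 0.01, 0.01 and -0.04, beside -0.02, 0.00 and -0.03 over all genes tested. These comparisons share libraries, each strain entering 2 of them.

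The precision sets what could have been seen. The median standard error of a gene's log2 difference in the input was 0.36, 0.36 and 0.35 in the same order. Single genes ranged from -0.90 to 0.98 for ∆RPL22A against WT and from -0.69 to 0.62 for ∆RPL22B against WT. At the ends of the first range, RSM24 had -0.90 ± 0.31 (SE, adjusted p = 0.0957) and MRPL33 had 0.98 ± 0.50 (adjusted p = 0.269, edgeR). Differences well above these standard errors, such as those of RSM24 and MRPL33, were therefore not called in a single gene at this depth.

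**Figure D2:**
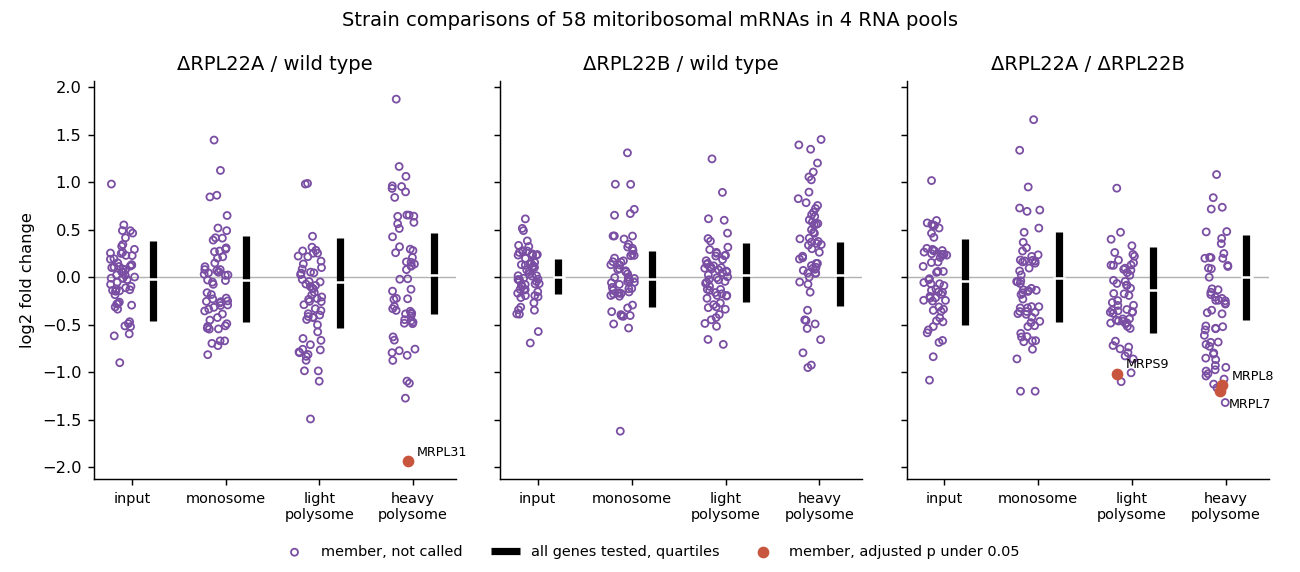
Log2 fold change of each of the 58 genes tested between strains (panels) in each of the 4 pools, where points are genes, filled points have an adjusted p under 0.05, and black bars span the quartiles of all genes tested with their median in white. The medians of the 58 genes lie between -0.31 and 0.34, and 4 points are filled, MRPS9 in light polysomes and MRPL31, MRPL7 and MRPL8 in heavy polysomes.

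In the monosome pool again none of the 58 genes was called in ∆RPL22A against WT (5.48% of all genes), ∆RPL22B against WT (0.353%) or ∆RPL22A against ∆RPL22B (3.1%), in edgeR or DESeq2. Without adjustment 4, 2 and 5 genes passed a p of 0.05. In light polysomes 0 genes were called in ∆RPL22A against WT (5.39% of all genes) and 0 in ∆RPL22B against WT (0.353%), in either tool, with 10 and 2 genes under an unadjusted p of 0.05. Only MRPS9 differed between the deletions there, out of 58 tested (7.19% of all genes called, 2.99% lower). The list median for ∆RPL22A against WT was -0.22, beside -0.05 over all genes.

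MRPS9 (YBR146W) encodes uS9m, a small-subunit protein (chrII:535260-536096). Its light polysome values were 6.34 and 7.89 CPM in ∆RPL22A, against 15.4 and 13.1 CPM in ∆RPL22B, while WT had 13.8 and 10.1 CPM. Both ∆RPL22A libraries lay below all 4 others. The log2 difference between the deletions was -1.01 ± 0.29 (SE, adjusted p = 0.0314, edgeR). The call was lost without either ∆RPL22A light library (adjusted p = 0.235 and 0.0717) and without ∆RPL22B light replicate 1 (0.0998), with only the compared groups fitted (0.339) and without 4 libraries that earlier work had placed closest to another pool (0.0534). Leaving out ∆RPL22B light replicate 1 also raised the number of genes called lower in ∆RPL22A than in ∆RPL22B to 11, and leaving out ∆RPL22B light replicate 2 gave 4 higher and 1 lower. Without ∆RPL22B light replicate 2, 7 genes were called lower in ∆RPL22B than in WT, so this pool's counts rest on single libraries.

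In heavy polysomes, 1 of 58 genes was called in ∆RPL22A against WT (3.29% of all genes called, 1.9% lower), 0 in ∆RPL22B against WT (0.316%) and 2 in ∆RPL22A against ∆RPL22B (5.37%, 2.94% lower), all lower in ∆RPL22A. DESeq2 called 1, 0 and 2. These counts depended on the fit. With the replicate number as a block they were 0, 0 and 0, with only the compared groups fitted 0, 0 and 9, and without the same 4 libraries 3, 0 and 9. Without adjustment 7, 3 and 13 genes passed a p of 0.05, again with no share over all genes beside them. The median over the 58 genes was -0.07 for ∆RPL22A against WT, 0.34 for ∆RPL22B against WT and -0.31 between the deletions, beside 0.03, 0.02 and 0.00 over all genes. For ∆RPL22B against WT, 46 of the 58 differences were above 0, though none was called. These differences come from the same libraries and are not independent, and the share above 0 over all genes is not given here. A joint rise of the 58 genes was not tested.

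MRPL31 (YKL138C), for the large-subunit protein mL60 (chrXI:185286-185681), had 0.29 and 1.59 CPM in heavy polysomes of ∆RPL22A, 1.72 and 1.23 CPM in ∆RPL22B and 2.82 and 2.80 CPM in WT. These values rest on few counts, 3 and 7, 6 and 6, and 10 and 11 in the same order. The ∆RPL22A libraries lay below those of WT and overlapped those of ∆RPL22B. Against WT the gene was lower by a log2 difference of -1.94 ± 0.53 in ∆RPL22A (adjusted p = 0.0370, edgeR). Without ∆RPL22A heavy replicate 1 the difference was -0.82 and the adjusted p 0.621, and the call was also lost without either WT heavy library (0.150 and 0.128), with the replicate block (0.0580), with only the compared groups (0.148) and without the 4 libraries (0.0602).

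MRPL7 (YDR237W) and MRPL8 (YJL063C) encode the large-subunit proteins uL5m and bL17m. In heavy polysomes MRPL7 had 4.09 and 6.82 CPM in ∆RPL22A, 12.4 and 11.7 CPM in ∆RPL22B and 14.1 and 8.67 CPM in WT. MRPL8 had 4.58 and 8.64 CPM in ∆RPL22A, 15.8 and 12.1 CPM in ∆RPL22B and 12.4 and 7.65 CPM in WT. Both genes were below ∆RPL22B in both ∆RPL22A libraries, and MRPL8 overlapped WT. Against ∆RPL22B the log2 differences were -1.2 ± 0.35 for MRPL7 (adjusted p = 0.0371) and -1.14 ± 0.33 for MRPL8 (adjusted p = 0.0419, edgeR). Both calls were lost without ∆RPL22A heavy replicate 1 (adjusted p = 0.441 and 0.501), without either ∆RPL22B heavy library, and with the replicate block (0.0532 and 0.0584).

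Whether the step between input and heavy polysomes differed between strains was tested as an interaction in the same edgeR model. None of the 58 genes and 0 of all genes (0.0%) passed in any of the 3 pairs of strains, in edgeR or DESeq2. Without adjustment 1, 3 and 6 of the 58 had a p under 0.05 for ∆RPL22A against WT, ∆RPL22B against WT and ∆RPL22A against ∆RPL22B. Their medians were 0.03, 0.22 and -0.47.

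The second question was where on the gradient these messages sat, and here the strains showed a common picture. The genes were enriched in light polysomes relative to the input and scarce in heavy polysomes relative to the light ones. In light polysomes against input, 29 of 58 genes rose and 0 fell in ∆RPL22A (17.2% of all genes rose and 8.42% fell), 34 rose and 0 fell in ∆RPL22B (20.7% and 12.4%), and 31 rose and 0 fell in WT (20.8% and 13.6%). The medians were 0.94, 1.18 and 1.16 on the log2 scale, against -0.04, -0.04 and -0.12 over all genes. The rise was called in all 3 strains for 25 genes, 15 of the large and 10 of the small subunit (13.3% of all genes). Among the fractions, light polysomes gave the highest mean CPM for 38, 42 and 39 of the 59 genes in ∆RPL22A, ∆RPL22B and WT, the monosomes for 18, 13 and 15, and heavy polysomes for 3, 4 and 5. The highest fraction was not counted over all genes or over genes of like length. The 59 include MRPL38, which had 19 counts over all libraries.

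MRPL39 was among the genes that rose. In light polysomes it had 15.3 and 6.16 CPM in ∆RPL22A, 9.53 and 38.2 CPM in ∆RPL22B and 25.8 and 21.1 CPM in WT. In the input it had 4.54 and 3.63 CPM in ∆RPL22A, 4.32 and 4.07 CPM in ∆RPL22B and 3.04 and 2.89 CPM in WT. Every light library lay above every input library, although the light replicates of ∆RPL22B were far apart. The log2 differences were 1.42 ± 0.42, 2.49 ± 0.41 and 2.98 ± 0.45 in ∆RPL22A, ∆RPL22B and WT (adjusted p = 0.0131, 6.26e-05 and 3.18e-05, edgeR). In ∆RPL22A the call was lost without light replicate 1 (0.59, adjusted p = 0.521) and without input replicate 2 (1.28, adjusted p = 0.129). MRP2 (YPR166C), for the small-subunit protein uS14m, rose by 2.07 ± 0.58, 2.99 ± 0.60 and 2.34 ± 0.62 (adjusted p = 0.00958, 0.000337 and 0.00413). Its call was lost in ∆RPL22A without light replicate 1 (adjusted p = 0.432) or input replicate 2 (0.106) and in ∆RPL22B without light replicate 2 (0.264).

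The number called depended on single libraries in the deletion strains. In ∆RPL22A it fell to 2 without light replicate 1 and to 2 without input replicate 2, and in ∆RPL22B to 13 without light replicate 2.

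**Figure D3:**
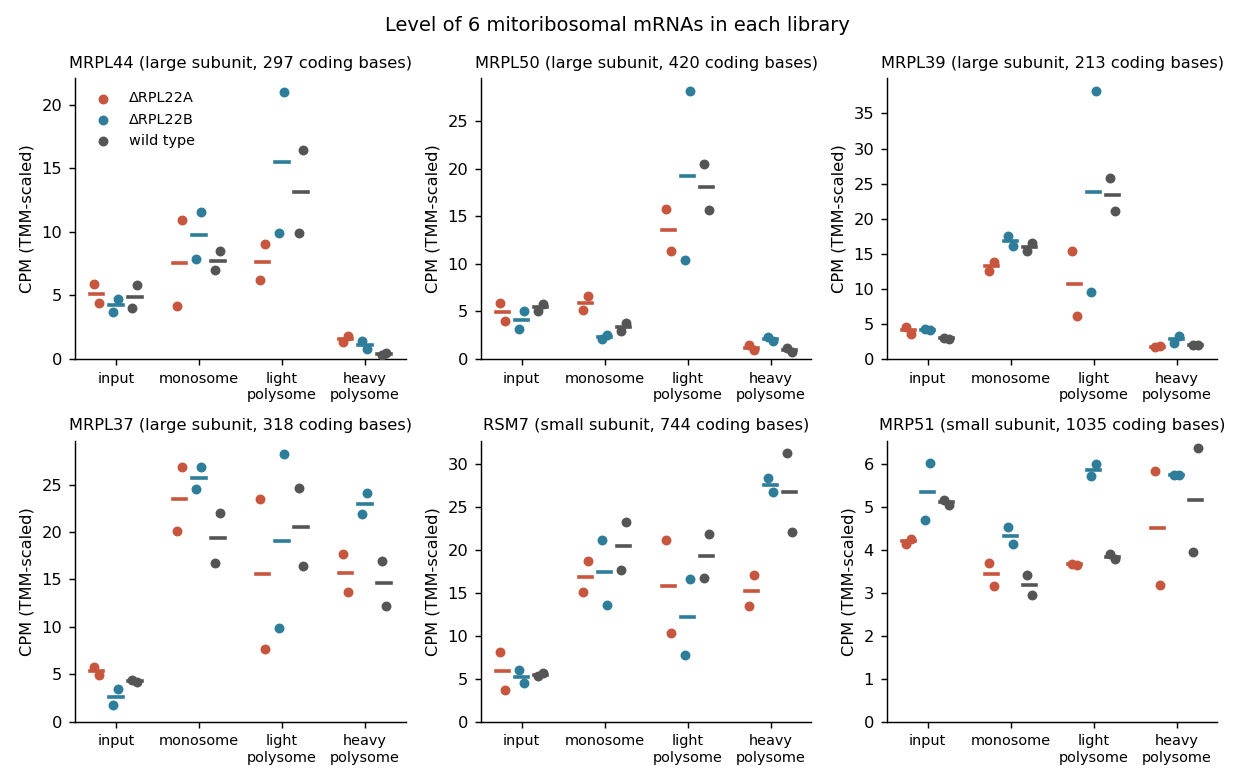
CPM, scaled between libraries, of 6 genes in each of the 24 libraries, by pool and strain, where points are libraries and bars are means of 2. MRPL44 and MRPL50 have their highest mean in light polysomes in each strain, as MRPL39 has in ∆RPL22B and WT, and the 3 genes are at most 3.29 CPM in every heavy library, whereas MRPL37 and RSM7 are at least 12.2 CPM there and MRP51 is 3.18 to 6.37 CPM.

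In heavy polysomes against light polysomes, 0 genes rose and 30 fell in ∆RPL22A (18.7% of all genes rose and 20.6% fell), 1 rose and 26 fell in ∆RPL22B (11.7% and 15.5%), and 0 rose and 33 fell in WT (14.0% and 18.0%). The medians were -1.05, -0.92 and -1.19, against 0.07, -0.02 and 0.07 over all genes. The fall was called in all 3 strains for 19 genes, 14 of 35 large-subunit and 5 of 23 small-subunit genes (10.9% of all genes). This comparison shares the light libraries with that against input. Without ∆RPL22A heavy replicate 1 the number called in ∆RPL22A was 19, and without ∆RPL22B heavy replicate 2 the number called in ∆RPL22B was 9.

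The largest falls were in short large-subunit genes. MRPL44 had 1.36 and 1.82 CPM in heavy polysomes of ∆RPL22A against 6.23 and 9.05 CPM in its light polysomes, 1.44 and 0.82 against 9.89 and 21.0 CPM in ∆RPL22B, and 0.28 and 0.51 against 9.89 and 16.4 CPM in WT. No heavy library reached any light library, but the heavy libraries held few counts, 14 and 8, 5 and 4, and 1 and 2 in the same order. The size of the fall of MRPL44 is therefore imprecise, most of all in WT. Its log2 differences were -2.29 ± 0.47, -3.80 ± 0.52 and -4.93 ± 0.67 in ∆RPL22A, ∆RPL22B and WT (adjusted p = 0.000412, 6.51e-06 and 3.96e-06, edgeR), and stayed called under every alternative run. MRPL44 has 2 coding exons, which few yeast genes have.

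MRPL50 (YNR022C), for bL9m (chrXIV:669774-670193), had 1.46 and 0.91 CPM in heavy polysomes of ∆RPL22A against 15.8 and 11.4 CPM in its light polysomes, 2.30 and 1.85 against 10.4 and 28.1 CPM in ∆RPL22B, and 1.13 and 0.76 against 20.5 and 15.6 CPM in WT. Its log2 differences were -3.41 ± 0.44, -3.21 ± 0.44 and -4.25 ± 0.53 (adjusted p = 2.33e-06, 6.35e-06 and 1.14e-06). Heavy and light libraries of MRPL50 did not overlap, though its heavy libraries held only 15 and 4, 8 and 9, and 4 and 3 counts. Among small-subunit genes MRP17 (YKL003C), for bS6m, fell furthest, by log2 differences of -2.29 ± 0.45, -2.72 ± 0.50 and -3.14 ± 0.54 (adjusted p = 0.00023, 0.000187 and 7.49e-05). The heavy libraries held 25 and 9, 7 and 9, and 2 and 10 counts of MRP17.

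RSM7 (YJR113C), for the small-subunit protein uS7m (chrX:638232-638975), was the only gene called higher in heavy than in light polysomes, and only in ∆RPL22B. It had 13.4 and 17.1 CPM in heavy polysomes of ∆RPL22A against 21.2 and 10.4 CPM in its light polysomes, 28.5 and 26.7 against 7.82 and 16.7 CPM in ∆RPL22B, and 31.3 and 22.2 against 16.8 and 21.9 CPM in WT. The 2 pools overlapped in ∆RPL22A, and in WT the heavy libraries lay just above the light ones. The log2 differences were -0.09 ± 0.36, 1.18 ± 0.36 and 0.48 ± 0.37 (adjusted p = 0.871, 0.0163 and 0.352). The call in ∆RPL22B was lost without heavy replicate 1 or 2 (adjusted p = 0.0690 and 0.0697) and without light replicate 1 (0.158), and the gene was singled out here after its values were seen. MRP51 stayed near its input level, with 5.84 and 3.18 CPM in heavy polysomes of ∆RPL22A, 5.75 and 5.76 CPM in ∆RPL22B and 3.95 and 6.37 CPM in WT, against 4.15 and 4.27, 4.71 and 6.03, and 5.16 and 5.06 CPM in the input of the same strains. None of its pool differences was called, and those of heavy against light polysomes were 0.37 ± 0.32, -0.03 ± 0.31 and 0.43 ± 0.37. MRP7 had 0.38, 0.17 and 0.24 and RSM23 (YGL129C), for mS29, had 0.06, -0.09 and 1.05 in the same comparison, none of them called.

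Against the input, heavy polysomes held few differences. In ∆RPL22A 2 genes rose (9.93% of all genes) and 9 fell (6.91%), in ∆RPL22B 6 rose (10.5%) and 5 fell (5.95%), and in WT 3 rose (7.01%) and 4 fell (3.25%). MRPL37 and RSM7 rose in all 3 strains (3.42% of all genes) and MRPL44, MRP20 and MRPL4 fell in all 3 (1.38%). MRPL37 had 17.7 and 13.7 CPM in heavy polysomes of ∆RPL22A, 21.9 and 24.1 CPM in ∆RPL22B and 16.9 and 12.2 CPM in WT, against 5.80 and 4.91, 1.77 and 3.41, and 4.35 and 4.20 CPM in the input of these strains. Its log2 differences were 1.56 ± 0.42, 3.11 ± 0.45 and 1.76 ± 0.45 (adjusted p = 0.0118, 1.84e-05 and 0.0110, edgeR), so this short gene was above its input level in every heavy library. MRP20 (YDR405W), for uL23m, which lies at the exit of the nascent chain tunnel, fell by log2 differences of -1.61 ± 0.46, -1.76 ± 0.46 and -1.82 ± 0.50. MRPL37 lost its call in ∆RPL22A without heavy replicate 1 (adjusted p = 0.132) or either input library (0.0764 and 0.0656), and in WT without heavy replicate 1 (0.172) or either input library (0.0998 and 0.0711). MRP20 lost its call in each strain without heavy replicate 1 (0.257, 0.147 and 0.337) and without input replicate 1 (0.132, 0.0615 and 0.107), and in WT without input replicate 2 (0.0516). The number of genes called dropped in ∆RPL22A to 2, 7 and 1 without heavy replicate 1, heavy replicate 2 and input replicate 1. It dropped in ∆RPL22B to 5, 4, 7 and 5 without heavy replicate 1, heavy replicate 2, input replicate 1 and input replicate 2, and in WT to 1, 3 and 3 without heavy replicate 1, input replicate 1 and input replicate 2.

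In monosomes against input, 11 genes rose and 0 fell in ∆RPL22A (8.23% of all genes rose and 5.56% fell), 18 rose and 2 fell in ∆RPL22B (16.7% and 12.8%), and 16 rose and 3 fell in WT (17.2% and 13.6%). The medians were 0.45, 0.74 and 0.64, beside 0.03, -0.03 and -0.02 over all genes. The rise was called in all 3 strains for 9 genes, 6 of the large and 3 of the small subunit (6.91% of all genes), namely MRPL37, MRPL36, MRPL39, MRPL15, MRPL7, MRP7, MRP2, RSM7 and RSM26. MRPL36 (YBR122C), for bL31m, had 17.9 and 17.0 CPM in monosomes of ∆RPL22A, 28.1 and 25.6 CPM in ∆RPL22B and 17.2 and 16.5 CPM in WT, against 6.5 and 6.09, 5.59 and 5.08, and 4.86 and 5.06 CPM in the input. Its monosome and input libraries did not overlap, with log2 differences of 1.47 ± 0.31, 2.33 ± 0.32 and 1.77 ± 0.33 (adjusted p = 0.00187, 5.75e-06 and 0.000189, edgeR).

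Of the pair related to superoxide dismutase, RSM26 rose in monosomes, by 1.37 ± 0.33, 2.01 ± 0.34 and 2.05 ± 0.34 (adjusted p = 0.0055, 6.73e-05 and 5.09e-05). MRP1 had 0.83 ± 0.28, 0.26 ± 0.30 and 0.68 ± 0.28 (adjusted p = 0.0448, 0.554 and 0.0661), which passed in ∆RPL22A alone, and the difference between strains was not tested. The call of RSM26 in ∆RPL22A was lost without input replicate 2 (adjusted p = 0.0513), and that of MRP1 without any of the 4 libraries (0.0671 to 0.351) and in DESeq2 (0.0997). The genes that fell, looked up after the counts were seen, were MRPL4 and MRPL40 in ∆RPL22B and MRPL4, MRPL40 and MRPS17 in WT. Without monosome replicate 1 of the strain none of these passed (adjusted p = 0.166 and 0.303 in ∆RPL22B, and 0.119, 0.421 and 0.0883 in WT). The number of genes called dropped in ∆RPL22A to 7, 6 and 3 without monosome replicate 1, monosome replicate 2 and input replicate 2. It dropped in ∆RPL22B to 8, 13, 10 and 12 without monosome replicate 1, monosome replicate 2, input replicate 1 and input replicate 2, and in WT to 11 and 9 without monosome replicate 1 and input replicate 1.

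The large and small subunits differed in how they spread over the gradient. The large-subunit genes summed to 122, 162 and 121 CPM in heavy polysomes of ∆RPL22A, ∆RPL22B and WT, against 301, 369 and 390 CPM in their light polysomes (means of 2 libraries). The small-subunit genes summed to 102, 145 and 123 CPM in heavy polysomes, against 175, 218 and 223 CPM in light polysomes. The ratio of the large to the small sum was 1.37–1.56 over the 6 input libraries, 1.34–1.73 in monosomes, 1.58–1.79 in light polysomes and 0.944–1.2 in heavy polysomes. In heavy polysomes it was 1.2 and 1.2 in ∆RPL22A, 1.11 and 1.13 in ∆RPL22B and 0.944 and 1.04 in WT, and all 6 lay below every library of the other pools.

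The ratio follows the sums, in which abundant genes weigh most. Taken over the median gene of each subunit it averaged 0.737 in heavy polysomes, against 0.981 in the input, 0.927 in monosomes and 0.996 in light polysomes. In heavy against light polysomes 21, 19 and 23 of 35 large-subunit genes fell, with medians of -1.33, -1.13 and -1.43. Of 23 small-subunit genes 9, 7 and 10 fell, with medians of -0.82, -0.65 and -0.94. Over all genes 20.6%, 15.5% and 18.0% fell. In light polysomes against input 18, 22 and 21 large-subunit genes rose (medians 0.99, 1.29 and 1.39), and 11, 12 and 10 small-subunit genes (medians 0.49, 0.85 and 0.74). Over all genes 17.2%, 20.7% and 20.8% rose.

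**Figure D4:**
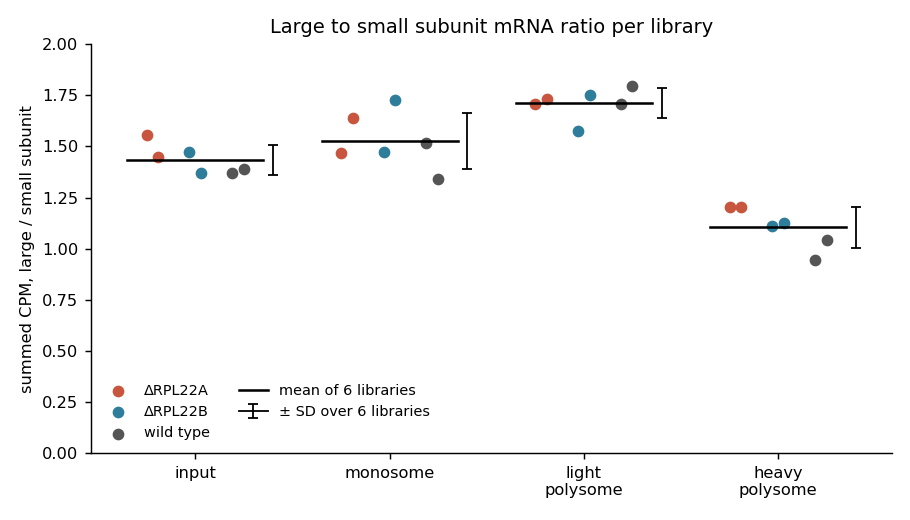
Ratio of the summed CPM of the 36 large-subunit genes to that of the 23 small-subunit genes in each of the 24 libraries (points), by pool and strain, with the mean (line) and SD (bar) over the 6 libraries of a pool. The 6 heavy polysome libraries sit between 0.944 and 1.2, below the 18 others, which sit between 1.34 and 1.79.

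The subunits also differ in gene length, and length moved with position on the gradient. Coding sequences ran from 213 to 1173 bases in the large-subunit genes (median 672) and from 333 to 1887 bases in the small-subunit genes (median 801), against a median of 1200 over all genes. Over the 58 genes, the log2 difference between heavy and light polysomes correlated with log2 coding length at r = 0.51, 0.65 and 0.69 in ∆RPL22A, ∆RPL22B and WT, and over 5301 genes at r = 0.71, 0.56 and 0.65. For light polysomes against input, r was -0.69, -0.81 and -0.79 over the 58 genes and -0.64, -0.77 and -0.72 over all genes. These are correlations across genes that share libraries, and genes are not independent replicates.

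The same held by length class. In WT light polysomes against input, all 13 genes under 450 bases rose, as did 408 of 496 genes of that class, with a median of 2.0 against 2.25. All 9 genes of 450 to under 600 bases rose, as did 248 of 348 in the class, with a median of 1.83 against 1.70. In the class of 600 to under 900 bases 8 of 21 rose, beside 308 of 810 (median 0.81 against 0.78), and of 13 genes of 900 to under 1200 bases 1 rose, beside 101 of 832 (0.05 against 0.14). In heavy against light polysomes the WT medians of these classes were -1.81, -2.44, -1.08 and -0.60, against -2.07, -1.51, -0.84 and -0.11 for all genes of the same length. The class of 450 to under 600 bases also lay below all genes in the deletions. It had -1.94 against -1.53 in ∆RPL22A and -1.74 against -1.23 in ∆RPL22B. So did that of 900 to under 1200 bases, at -0.61 against -0.35 and -0.42 against -0.10. That of 600 to under 900 bases had -1.02 against -1.01 and -0.77 against -0.68. Cytosolic ribosomal protein genes of 450 to under 600 bases were also below all genes, at -2.28, -1.68 and -1.82 in ∆RPL22A, ∆RPL22B and WT. For 600 to under 900 bases they had -1.44, -0.45 and -0.58, and for 900 to under 1200 bases -1.11, 0.11 and 0.00. These differences from genes of like length were not tested. MRPL37, with 318 coding bases, departed from its class, with -0.01, 0.28 and -0.52 in ∆RPL22A, ∆RPL22B and WT.

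**Figure D5:**
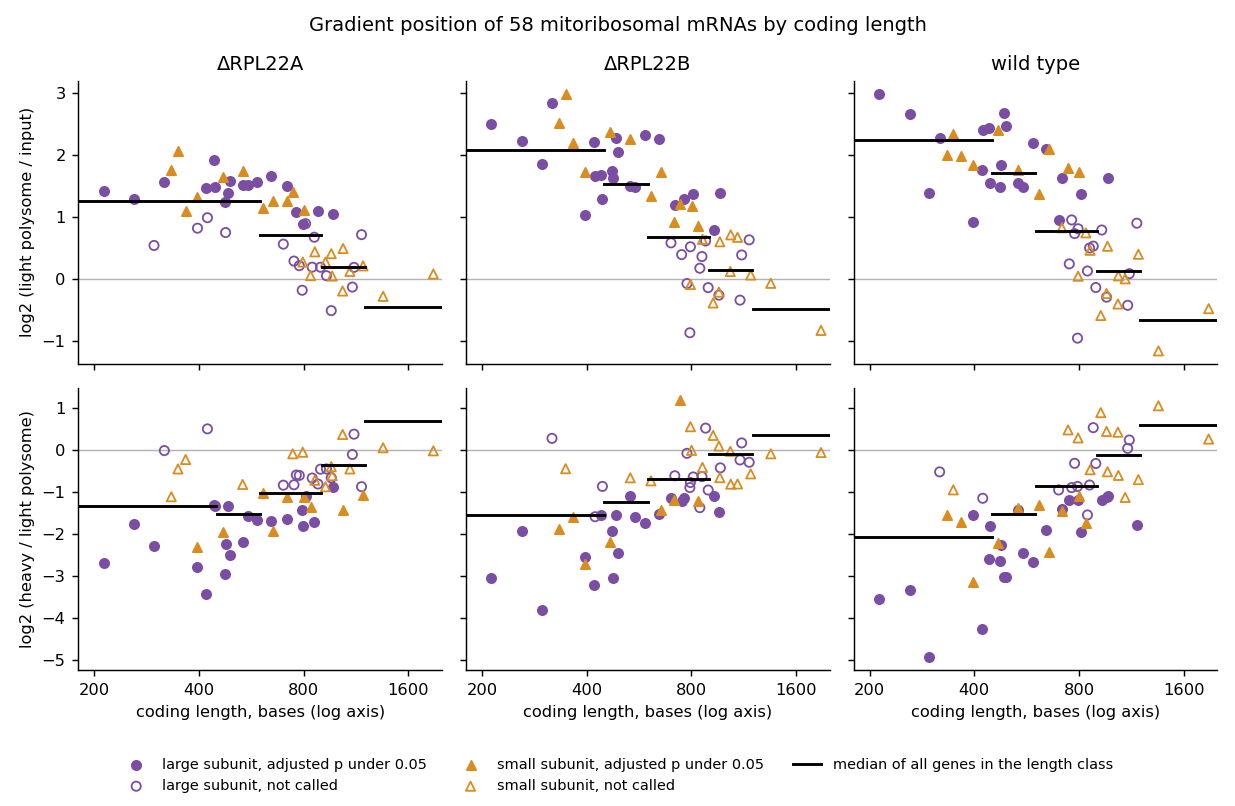
Log2 difference of each of the 58 genes against its coding length in bases on a log axis, for light polysomes against input and heavy against light polysomes in each strain, with the medians of all genes tested in the same length classes as lines. Short genes are high in light polysomes and low in heavy ones. In heavy against light polysomes the medians of the mitochondrial ribosomal protein genes are below those of all genes in each strain for some classes. These are the classes of 450 to under 600, of 600 to under 900 and of 900 to under 1200 bases.

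Among the genes of 600 bases and over, 19 large-subunit and 17 small-subunit genes, the ratio of summed CPM was 0.679–0.892 in heavy polysomes, 0.940–1.06 in the input, 0.863–1.02 in monosomes and 0.865–1.13 in light polysomes. The heavy libraries lay below every input library but overlapped the monosome and light ranges. RSM7 weighs heavily in this small-subunit sum, with 13.4 to 31.3 CPM in heavy libraries against 3.74 to 8.15 CPM in the input. How far the separation from the input rests on RSM7 was not tested. Among the shorter genes, 17 of the large and 6 of the small subunit, the ratio was 1.88–2.32 in heavy polysomes, below the 3.07–3.64 of the input, the 2.60–3.86 of monosomes and the 2.66–3.30 of light polysomes. Within classes, the WT medians for heavy against light polysomes were -2.59 for 9 large-subunit and -1.63 for 4 small-subunit genes under 450 bases, and -2.64 for 7 and -1.79 for 2 genes of 450 to under 600 bases. For 600 to under 900 bases the order turned, with -0.95 for 13 large-subunit and -1.19 for 8 small-subunit genes, and for 900 to under 1200 bases it was -1.10 for 6 and -0.51 for 7 genes. The order in these longer classes varied between strains. For 600 to under 900 bases the medians were -0.83 and -1.06 in ∆RPL22A and -0.89 and -0.57 in ∆RPL22B, and for 900 to under 1200 bases -0.55 and -0.61 in ∆RPL22A and -0.36 and -0.56 in ∆RPL22B (large before small subunit). The part of length in the difference between subunits was not tested further.

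Genes of the same machinery outside the 59 were set beside them. In WT light polysomes against input, 6 of 9 other large-subunit and 5 of 9 other small-subunit genes of the mitochondrial ribosome rose, and 0 fell. Of 14 synthetase genes 0 rose and 1 fell, of 8 translation factor genes 1 rose, of 16 activator genes 2 rose and of 8 assembly genes 0 changed. Of the nuclear respiratory chain genes 27 of 37 rose and 3 fell (median 2.17), and 125 of 134 cytosolic ribosomal protein genes rose (median 2.51). Both lists were enriched in light polysomes as the 59 were. Median coding lengths were 1669.5 bases for the synthetases, 1314 for the translation factors, 1513.5 for the activators and 1398 for the assembly genes. They were 451.5 for the respiratory chain genes, 432 for the cytosolic ribosomal protein genes and 744 for the 59. In WT light polysomes against input, 39 of all 2815 genes of 1200 bases and over rose (median -0.66). The part of length in these differences between lists was not tested. In heavy against light polysomes of WT, 23 of 37 respiratory chain genes and 97 of 134 cytosolic ribosomal protein genes fell (medians -1.45 and -1.89), and 2 of each rose.

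Members of the translation machinery moved in both directions. PET122, an activator needed for translation of the mitochondrial COX3 message, was higher in heavy than in light polysomes by 2.05 ± 0.44, 2.49 ± 0.39 and 1.82 ± 0.41 in ∆RPL22A, ∆RPL22B and WT (adjusted p = 0.000542, 2.7e-05 and 0.00126, edgeR). CBP6, an activator needed for cytochrome b, fell by -1.61 ± 0.52, -1.73 ± 0.49 and -2.22 ± 0.61 (adjusted p = 0.0153, 0.00905 and 0.00616). In the input, 3 of 6 tested mitochondrially encoded genes were called higher in ∆RPL22A than in WT (4.65% of all genes called) and 0 of 6 in ∆RPL22B against WT (0.335%), by edgeR, where 0 had an unadjusted p under 0.05. COX1, for a core subunit of cytochrome oxidase, was higher in ∆RPL22A by 2.12 ± 0.38 (adjusted p = 0.00083), COB, for cytochrome b, by 2.34 ± 0.53 (0.00789), and ATP6, for a subunit of ATP synthase, by 2.21 ± 0.48 (0.00527, edgeR). The difference was -0.09 ± 0.41 for OLI1, for another subunit of ATP synthase, and those of the 3 called genes in ∆RPL22B against WT were 0.67, 0.67 and 0.83. Over all pools COX1, COB and ATP6 had only 289, 138 and 269 counts in ∆RPL22A and 105, 60 and 118 in WT. The libraries hold polyA RNA, and how far this selection retains mitochondrial messages was not tested. A change in their level therefore cannot be told apart from a change in what the selection retained.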

How the data were processed

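PolyA RNA of 24 libraries was sequenced, and reads with the same barcode from 2 lanes were merged by the submitters, per the series design. The deposited table holds whole-number counts per gene. Tools listed without role or order in the processing notes of the submitters are RSEM 1.2.18, cutadapt 1.4 and SAMtools 0.1.19, with sacCer3 as the build. The counting program, its settings and its use of strand are not given in the sources used here. All 24 columns matched a label, with 0 left unmatched.

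From the counts as deposited, edgeR 4.0.16 in R 4.3.3 kept 5380 genes (filterByExpr, minimum count 10 and minimum total 15), scaled libraries by TMM over all rows, including 7 rows of the ribosomal DNA locus, and fitted 1 model with 12 groups (12 residual and 16.1 prior degrees of freedom). Quasi-likelihood tests gave 27 comparisons of groups, each adjusted over all genes by Benjamini-Hochberg, and a gene is called at an adjusted p under 0.05. Standard errors are the log2 fold change divided by the root of its F statistic. Levels are TMM-scaled CPM, divided by coding length in kilobases where genes are compared. DESeq2 1.42.0 was an alternative, and the scripts were tested on simulated data. Replicates differed by more than sampling noise (chi-square per degree of freedom 1.83 to 34.3), so none was counted as a copy. Groups have 2 biological replicates, with the preparation of the duplicates not described further.

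Gene names, coordinates, coding lengths and sequences come from the RefSeq annotation of R64, matched by systematic name for 5908 of 6369 rows. The 59 genes, the other lists and the comparisons were chosen with earlier results of these data known. Genes named are the called members of a comparison, or the 10 with the largest change, with the 4 highest and 4 lowest in input level and in heavy to light ratio per subunit, and 6 fixed by what they are. Figures were drawn with matplotlib 3.10.9.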

Additional observations from a re-analysis of the deposited data

How the results depend on the processing

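Counts of genes called depend on which libraries enter more than on scaling. Scaling by relative log expression, leaving out the ribosomal DNA rows and DESeq2 kept every count of called members within 1.5 times, and no named difference changed sign in any alternative. Leaving out each library in turn gave 0–1 calls for ∆RPL22A against WT in light and 0–1 in heavy polysomes, 0–7 for ∆RPL22B against WT in light polysomes, and 0–11 in light and 0–2 in heavy polysomes between the deletions. The same gave, for ∆RPL22A, ∆RPL22B and WT, 3–10, 8–13 and 9–13 calls in monosomes against input, 2–28, 13–35 and 27–30 in light polysomes against input, 1–8, 4–7 and 1–6 in heavy polysomes against input, and 19–29, 9–30 and 26–28 in heavy against light polysomes. The subunit ratios ranged over 1.41–1.45 in input, 1.49–1.56 in monosomes, 1.69–1.74 in light and 1.09–1.14 in heavy polysomes. In these fits the lone library left in a group is assumed to vary like the others, and part of the loss follows from having fewer libraries.

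With no low-count filter, ∆RPL22A against WT had 1 call in monosomes and 1 in light polysomes, and the deletions differed in 3 in light polysomes. Without 4 libraries that earlier work on these data had placed closest to another pool (∆RPL22A input 1, ∆RPL22A light 2, ∆RPL22B light 1 and WT heavy 2), ∆RPL22A against WT had 1 call in monosomes, 1 in light and 3 in heavy polysomes, and the deletions differed in 2, 4 and 9. Monosomes against input then gave 20 calls in ∆RPL22A and 29 in WT, and heavy polysomes against input 12 in WT. With only the compared groups in the fit, ∆RPL22A against WT had 1 call in monosomes, 2 in light and 0 in heavy polysomes. The deletions then differed in 1 gene in input, 3 in monosomes, 0 in light and 9 in heavy polysomes and in 1 shift between input and heavy polysomes, and ∆RPL22B had 21 calls in light polysomes against input, 19 in heavy polysomes against input and 14 in heavy against light polysomes. As medians over genes in place of sums, the subunit ratios were 0.981, 0.927, 0.996 and 0.737 in input, monosomes, light and heavy polysomes, and over genes of 600 bases and more, an alternative chosen after seeing the data, 0.987, 0.941, 1.02 and 0.795. The cause of these changes was not tested.

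With the replicate number as a block, ∆RPL22A against WT and ∆RPL22A against ∆RPL22B had 0 calls each in heavy polysomes (adjusted p = 0.0580 for MRPL31, 0.0532 for MRPL7 and 0.0584 for MRPL8), and no other count moved beyond 1.5 times. Deviations of same-numbered libraries within a strain correlated at -0.299 to 0.278, with 3 of 18 pairs over 0.1. Whether same-numbered libraries come from the same culture is not described. With 1 difference between replicates per group, these correlations cannot decide it. Genes with few counts limit what single libraries can show, as MRPL38, with 19 counts in all, could not be tested.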
